A study of Mus musculus with 16 samples.

Results

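The genes described here encode 10 nuclear receptors that sense metabolites, drugs or hormones in the liver: Nr1h4 (FXR), Nr0b2 (SHP), Nr1i2 (PXR), Nr1i3 (CAR), Ppara, Pparg, Rxra, Nr1h3 (LXRalpha), Nr3c1 (the glucocorticoid receptor) and Nr1d1 (REV-ERBalpha). They were picked by symbol, with earlier results of these data known, and all 10 were found among 48158 genes for which transcript values could be summed. All 10 also reached the minimum for testing, which 11790 genes passed, and 6 of them held at least 1 FPKM in every one of 16 libraries. FPKM are fragments per kilobase of transcript, scaled to the mapped fragments of a library, so levels can be compared between genes per unit of length.

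The libraries were made from polyadenylated RNA of hepatocytes of FVB mice, isolated in the presence of cycloheximide, a drug that holds ribosomes on their message. The mice were fed DDC for 4 weeks or a normal diet (CHOW); in liver research DDC is the porphyrin-inducing compound diethoxycarbonyl-dihydrocollidine, which injures bile ducts and hepatocytes. From each diet the study took cytoplasmic RNA and 3 sucrose gradient fractions: monosomes with 1 ribosome, light polysomes with 2 to 4 and heavy polysomes with more than 5. The 8 groups were therefore DDC and CHOW cytoplasm, DDC and CHOW monosomes, DDC and CHOW light polysomes, and DDC and CHOW heavy polysomes, with 2 libraries each. The labels give no age or sex, nor whether separate animals stand behind the libraries of a group, so p-values measure the spread between these libraries, which may in part be technical.

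Per the labels, the DDC fraction libraries came from preparations B (replicate 1) and C (replicate 2), whereas the DDC cytoplasmic libraries carry the names C2 and D2. These names were taken here as preparations C and D, which is an assumption. On this reading preparation B has no cytoplasmic library. The CHOW libraries came from preparations CH1_CH2 (replicate 1) and CH3_CH4 (replicate 2). The Y-linked gene Eif2s3y held 4.2 to 21 FPKM in the DDC libraries and 21.4 to 34.5 in the 4 CHOW libraries of replicate 2, and was at 0 in the 4 CHOW libraries of replicate 1; Xist was above 0 in these 4 libraries and at 0 in the other 12. By these genes the CHOW replicates came from different animals, and the diets were not balanced in sex-linked genes. The part of this in the spread within CHOW and in the diet changes was not tested. Summed FPKM ran from 375145 to 1386166 per library, lowest in cytoplasm and highest on heavy polysomes. Sequencing depth is unknown because the values are scaled. Of 12 listed hepatocyte markers 11 were found, of which Alb was listed at 0 in every library and Apoa1, Ttr, Serpina1a or Ahsg in both libraries of some groups, so that their summed levels are not compared. Of those that could be tested with diet, 0 rose and 1 fell of 8 in cytoplasm (median change -0.60), and 1 rose and 2 fell of 7 on monosomes (median -0.22). On light polysomes 0 rose and 2 fell of 6 (median -0.12), and on heavy polysomes 0 rose and 2 fell of 7 (median -0.15). Of all genes, 12.7% rose and 9.68% fell in cytoplasm, and 21% and 15.9% did on monosomes. The shares that rose and fell were 16.6% and 13.5% on light polysomes, and 13.9% and 10.9% on heavy polysomes. Macrophage markers summed to 774 to 6921 FPKM in DDC libraries, against 112 to 541 in CHOW libraries. In such bulk preparations, fewer cells of a type and less RNA per cell cannot be told apart.

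Nuclear receptors are transcription factors that change their activity when a small molecule binds. Rxra is the shared partner with which FXR, PXR, CAR, PPARs and LXRs sit on DNA; the glucocorticoid receptor binds as a homodimer, REV-ERBalpha represses as a monomer or homodimer, and SHP has no DNA-binding domain and represses other receptors. In hepatocytes FXR responds to bile acids and lowers their synthesis through SHP, PXR and CAR induce drug-metabolizing enzymes, PPARalpha drives fatty acid oxidation, LXRalpha responds to oxysterols, and REV-ERBalpha is an output and a repressor of the circadian clock.

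Some sequences help in reading the values. Nr1h4 (chromosome 10, 89454234 to 89533585, minus strand, GRCm38) has 3 annotated coding transcripts, which differ among other things in a 12-base coding insert at chr10:89483372-89483383, next to the DNA-binding domain of FXR. Nr1h4-202 and Nr1h4-203 carry it and Nr1h4-201 does not, and the junction is shown because the deposited values are per transcript; the insert is in capitals with 24 bases of exon on each side (GENCODE M21).
Nr1h4-201: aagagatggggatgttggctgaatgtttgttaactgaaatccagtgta
Nr1h4-202: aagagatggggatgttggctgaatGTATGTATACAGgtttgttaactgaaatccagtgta

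Promoter windows (RefSeq, GRCm38.p6, from 250 bases before to 50 after a start) were given for 9 of the receptors, 13 windows in all. They were searched on both strands for CACGTG, the E-box bound by the clock factors CLOCK and BMAL1, and for AGGTCA, the half-site of many nuclear receptors; neither motif contains the other, and CACGTG reads the same on both strands. CACGTG was present in 2 of these 13 windows, those of Nr1i3 and Nr0b2, against 7.15% of 32851 windows genome-wide, and AGGTCA in 4 of 13, against 16.3%. The other windows, among them those of Nr1d1 and Pparg, held no CACGTG. The 250 bases before the starts of Nr1i3 and Nr0b2 are printed, as the windows that hold the motif, with CACGTG in capitals (plus strand, first base of the motif at -244 and -195 relative to the start). A match of letters is not evidence of binding, and a window without a match is not evidence against it.
Nr1i3, chr1:171213720-171213969: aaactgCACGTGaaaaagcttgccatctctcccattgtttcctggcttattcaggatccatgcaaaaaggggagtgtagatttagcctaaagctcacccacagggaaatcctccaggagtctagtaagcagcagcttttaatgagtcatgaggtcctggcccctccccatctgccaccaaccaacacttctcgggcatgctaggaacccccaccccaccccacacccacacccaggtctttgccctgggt
Nr0b2, chr4:133553126-133553375: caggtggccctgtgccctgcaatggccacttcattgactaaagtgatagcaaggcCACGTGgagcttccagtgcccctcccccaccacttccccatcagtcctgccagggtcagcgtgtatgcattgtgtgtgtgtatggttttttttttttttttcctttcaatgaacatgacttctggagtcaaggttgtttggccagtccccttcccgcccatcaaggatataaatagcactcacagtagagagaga

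The first question was which receptors changed with DDC, pool by pool. Nr1h4 and Ppara fell in all 4 pools, Nr3c1 in cytoplasm, on monosomes and on light polysomes, and Nr1i3 in cytoplasm. Pparg rose in cytoplasm and on monosomes, and Nr0b2, Nr1i2, Rxra, Nr1h3 and Nr1d1 were not called in any pool. A change was called at an adjusted p under 0.05 (limma, Benjamini-Hochberg over all genes tested), and changes are differences in log2(FPKM + 1), DDC minus CHOW, which understate the change of genes with low values. In cytoplasm 5 of 10 receptors were called, against 22.4% of all genes, with 4 lower (9.68% of all genes) and 1 higher (12.7%). On monosomes 4 of 10 were called, against 37% of all genes (21% higher and 15.9% lower), and on light polysomes 3 of 10, against 30.1% (16.6% higher and 13.5% lower). On heavy polysomes 2 of 10 were called, against 24.8% (13.9% higher and 10.9% lower). These shares of all genes are also the background for the counts of gene lists that follow. The share called among the receptors was thus above that of all genes in cytoplasm and close to it on monosomes, light and heavy polysomes. Their median change was -0.37, -0.14, 0.14 and -0.63 in cytoplasm, on monosomes, light and heavy polysomes. The medians of all genes were 0.01, 0.04, 0.01 and 0.02. Where diets or fractions are said below not to overlap, this describes the 2 libraries of each group. The share of all genes that do not overlap was not counted for these comparisons, so that it is no measure of change by itself.

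**Figure D1:**
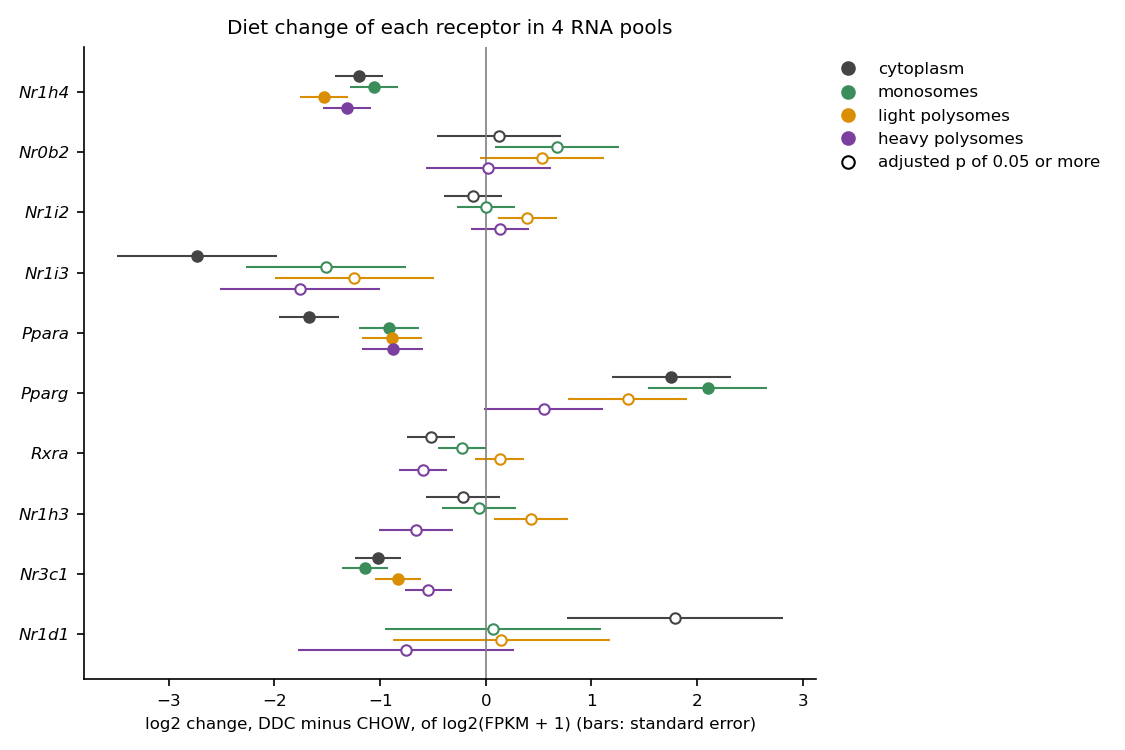
Change of each receptor with DDC (x axis, difference in log2(FPKM + 1), DDC minus CHOW, with its standard error) in cytoplasm, on monosomes, light and heavy polysomes (colours, top to bottom within each gene), filled where the adjusted p was under 0.05. Nr1h4 lies between -1.53 and -1.06 in all pools and Ppara between -1.67 and -0.88, while the wide bars of Nr1i3 and Nr1d1 reflect replicates that lay far apart.

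Nr1h4 encodes FXR, the bile acid receptor. In cytoplasm it held 18.4 and 17.6 FPKM in DDC, against 39.5 and 45.8 FPKM in CHOW. On monosomes it held 13.4 and 8.24 FPKM in DDC, against 25.3 and 21.1 FPKM in CHOW, and on light polysomes 11.6 and 11.8 FPKM in DDC, against 37 and 34.3 FPKM in CHOW. On heavy polysomes the libraries held 18.4 and 16.6 FPKM in DDC, against 45.1 and 44.6 FPKM in CHOW. Every DDC library lay below both CHOW libraries of its pool. The mean in DDC was 0.421, 0.468, 0.328 and 0.390 of the CHOW mean in cytoplasm, on monosomes, light and heavy polysomes, and the log2 changes were -1.20, -1.06, -1.53 and -1.31 (SE 0.23 each; adjusted p = 0.00321, 0.00357, 0.000485 and 0.00148). Nr1h4 on light polysomes was called under every alternative setting tried, and its calls in the other pools each ended under at least 1 of 14, with adjusted p no higher than 0.0944.

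Both kinds of Nr1h4 transcript were present with each diet. The transcript without the insert made up 62.2% and 61.4% of the gene's FPKM in DDC cytoplasm, against 60.6% and 54.5% in CHOW cytoplasm. On heavy polysomes its share was 57.0% and 56.1% in DDC, against 51.5% and 65.7% in CHOW, so that the diets overlapped there. On monosomes the share was 69.4% and 38.3% in DDC, against 38.3% and 0% in CHOW, where replicate 2 listed Nr1h4-201 at 0. How fragments were divided between these transcripts, which also differ outside the insert (Nr1h4-201 has 1964 bases and Nr1h4-203 has 2013), depends on the authors' estimation, and no test was made on shares.

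Nr0b2 (chromosome 4, 133553376 to 133556536, plus strand) encodes SHP, which is induced by FXR and represses bile acid synthesis. In cytoplasm it held 32.7 and 25.2 FPKM in DDC, against 25.7 and 26.8 FPKM in CHOW, and on heavy polysomes 135 and 97.3 FPKM in DDC, against 208 and 60.7 FPKM in CHOW. The diets overlapped in all 4 pools, and the changes lay between 0.03 and 0.67 (SE 0.59; adjusted p = 0.393 or higher). The 95% interval of the cytoplasmic change ran from -1.16 to 1.41, so that changes of more than 1 on the log2 scale in either direction remained possible. Replicate 1 exceeded replicate 2 within CHOW monosomes (73.2 and 30.1 FPKM), CHOW light polysomes (53.3 and 24.3 FPKM) and CHOW heavy polysomes, and this gap was wider than that of 93.7% to 97.1% of genes.

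Genes that FXR and SHP are known to repress were lower with DDC. All 4 listed genes (Cyp7a1, Cyp8b1, Slc10a1 and Cyp7b1) fell in cytoplasm, on monosomes and on light polysomes, and 3 of 4 on heavy polysomes; their median change in cytoplasm was -3.87, where that of all genes was 0.01. Cyp8b1, which sets the share of cholic acid, held 0.0212 and 0.0396 FPKM in DDC cytoplasm, against 86.4 and 96.6 FPKM in CHOW cytoplasm (change -6.49, SE 0.45, adjusted p = 4.80e-06). Slc10a1, the bile acid importer NTCP, held 52.2 and 42.6 FPKM in DDC cytoplasm, against 258 and 266 FPKM in CHOW cytoplasm (-2.45, SE 0.37, adjusted p = 0.000899). Cyp7a1, the rate-limiting enzyme of bile acid synthesis, was called in each pool apart from heavy polysomes (adjusted p = 0.108), with 4.07 and 1.06 FPKM in DDC cytoplasm, against 22.5 and 25.8 FPKM in CHOW cytoplasm.

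Of 11 genes that FXR is known to induce, 10 were tested, and 3 rose and 2 fell in cytoplasm (median change 0.56, all genes 0.01). Slc51b, a subunit of the basolateral bile acid exporter, held 94.4 and 86.5 FPKM in DDC cytoplasm, against 2.46 and 0.983 FPKM in CHOW cytoplasm, and 318 and 195 FPKM in DDC heavy polysomes, against 4.57 and 3.44 FPKM in CHOW heavy polysomes. It rose in all 4 pools, by 5.12 in cytoplasm (SE 0.56, adjusted p = 0.000114) and 5.65 on heavy polysomes (SE 0.56, adjusted p = 3.45e-05). Its partner subunit Slc51a was listed at 0 in every group. Abcb11, the canalicular bile salt export pump, was not called in any pool (164 and 91.6 FPKM in DDC cytoplasm, against 108 and 77.4 FPKM in CHOW cytoplasm; change 0.42, SE 0.34, adjusted p = 0.409).

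Nr1i2 (chromosome 16, 38248323 to 38294824, minus strand) encodes PXR, a sensor of drugs and toxic bile acids. It was the most even of the receptors, at 19 to 34.8 FPKM over all 16 libraries. In cytoplasm it held 24 and 24.3 FPKM in DDC, against 22.3 and 31.1 FPKM in CHOW, and on heavy polysomes 33.6 and 24.7 FPKM in DDC, against 23.2 and 29.4 FPKM in CHOW. The diets overlapped in every pool. The cytoplasmic change was -0.12 (SE 0.28, adjusted p = 0.807) with a 95% interval from -0.73 to 0.48.

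Nr1i3 (chromosome 1, 171213970 to 171220701, plus strand) encodes CAR, the receptor behind phenobarbital induction of Cyp2b enzymes. In cytoplasm it held 11.9 and 8.42 FPKM in DDC, against 69.7 and 74.6 FPKM in CHOW. On monosomes it held 75.7 and 17.2 FPKM in DDC, against 106 and 105 FPKM in CHOW, and on light polysomes 80.4 and 25.9 FPKM in DDC, against 120 and 100 FPKM in CHOW. On heavy polysomes it held 158 and 29.8 FPKM in DDC, against 277 and 201 FPKM in CHOW. The diets did not overlap in any of the 4 pools, but the DDC replicates of the ribosome fractions lay far apart.

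The mean of Nr1i3 in DDC cytoplasm was 0.14 of that in CHOW cytoplasm, a change of -2.73 (SE 0.76, adjusted p = 0.0225). On monosomes, light and heavy polysomes the changes were -1.51, -1.24 and -1.76 (SE 0.76 each) and were not called (adjusted p = 0.135, 0.236 and 0.113). Preparation B, at 75.7 to 158 FPKM over its 3 fractions, lay above preparation C, at 17.2 to 29.8 FPKM, and this gap was wider than that of 98.4% to 99.4% of genes. Leaving out the 3 libraries of preparation B, a setting added after the values were seen, left preparation C alone in each DDC fraction. It also dropped the DDC replicate nearer to CHOW. The changes of Nr1i3 were then -2.55, -2.04 and -2.94 on monosomes, light and heavy polysomes. In cytoplasm, where preparation B was taken to have no library, the change stayed at -2.73. Without the 4 CHOW libraries of CH1_CH2 the cytoplasmic change was -2.78 and its call ended (adjusted p = 0.188), and without a filter on low values its adjusted p was 0.0635.

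**Figure D2:**
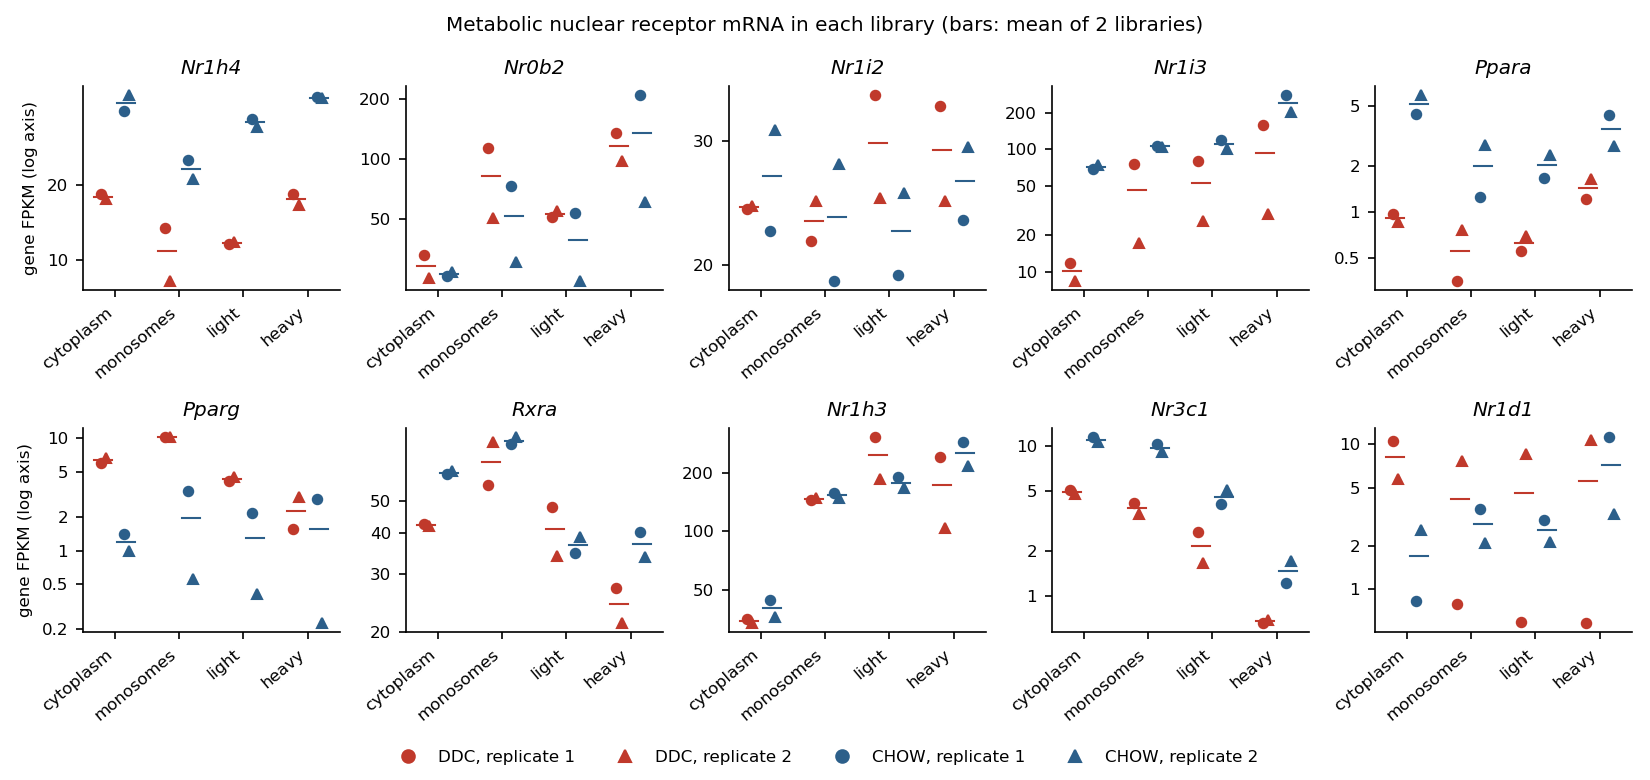
FPKM of each receptor (y axes, log scale, 1 panel per gene) in cytoplasm, on monosomes, light and heavy polysomes, with DDC (red) left of CHOW (blue), circles for replicate 1, triangles for replicate 2 and a bar at the mean of both. Nr1h4, Ppara, Nr3c1 and Nr1i3 show every DDC library below both CHOW libraries of its pool, and in the Nr1i3 and Nr1d1 panels the DDC circles and triangles of the ribosome fractions lie far apart.

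The exons of Nr1i3 overlap those of Tomm40l, a gene of the mitochondrial import machinery on the opposite strand, over 3304 bases, which include 66.2% of the most abundant transcript. The kit keeps strand per the labels, but whether the authors' counting used it is not given in the sources used here, so reads of both genes might not be told apart. Tomm40l held 5.31 and 4.73 FPKM in DDC cytoplasm, against 2.36 and 3.52 FPKM in CHOW cytoplasm, and 2.36 to 21.6 FPKM over all libraries. It was not called in any of the 4 diet comparisons (adjusted p = 0.417 or higher), and its highest level stood in DDC monosomes of replicate 2, where Nr1i3 was low.

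Of 21 target genes of PXR and CAR, 5 rose and 3 fell in cytoplasm (median change 0.37, all genes 0.01), where 12.7% of all genes rose and 9.68% fell. On monosomes 7 rose and 3 fell (median 0.73), where 21% of all genes rose and 15.9% fell. On light polysomes 6 rose and 5 fell (median 0.01), where 16.6% of all genes rose and 13.5% fell. On heavy polysomes 20 were tested, and 3 rose and 3 fell (median -0.08), where 13.9% of all genes rose and 10.9% fell. Cyp2b10, the classical CAR target, held 668 and 185 FPKM on DDC monosomes, against 21 and 14 FPKM on CHOW monosomes, and 776 and 220 FPKM on DDC heavy polysomes, against 79.5 and 63.6 FPKM on CHOW heavy polysomes. It rose by 4.28 on monosomes (SE 0.62, adjusted p = 0.000360), 2.70 on light polysomes (adjusted p = 0.00662) and 2.52 on heavy polysomes (adjusted p = 0.0113), and was not called in cytoplasm (106 and 85.5 FPKM in DDC, against 44.8 and 33.4 FPKM in CHOW; adjusted p = 0.168). In each DDC ribosome fraction it was higher in preparation B than in preparation C, as Nr1i3 was. Cyp3a11, the classical PXR target, and Cyp2c29 were not called in any pool; Cyp3a11 held 2838 and 1904 FPKM in DDC cytoplasm, against 1292 and 3071 FPKM in CHOW cytoplasm.

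Ppara (chromosome 15, 85734983 to 85802819, plus strand), the receptor that drives fatty acid oxidation during fasting, held under 2 FPKM in every DDC library. In cytoplasm it held 0.974 and 0.853 FPKM in DDC, against 4.43 and 5.84 FPKM in CHOW, and on monosomes 0.352 and 0.755 FPKM in DDC, against 1.25 and 2.76 FPKM in CHOW. On light polysomes it held 0.553 and 0.696 FPKM in DDC, against 1.67 and 2.38 FPKM in CHOW, and on heavy polysomes 1.21 and 1.63 FPKM in DDC, against 4.33 and 2.71 FPKM in CHOW. The diets did not overlap in any pool. The DDC mean was 0.178, 0.276, 0.308 and 0.404 of the CHOW mean in cytoplasm, on monosomes, light and heavy polysomes, with changes of -1.67, -0.92, -0.89 and -0.88 (SE 0.29 each; adjusted p = 0.00184, 0.0259, 0.0349 and 0.0413). The cytoplasmic call held under all 14 alternatives, whereas that on heavy polysomes held under 5 of 14 and was lost with libraries scaled to equal totals (-0.46, adjusted p = 0.281).

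Of 27 target genes of PPARalpha, 13 fell and 0 rose in cytoplasm (median change -1.05, all genes 0.01), and 19 fell and 0 rose on heavy polysomes (median -1.28, all genes 0.02). Cpt1a, which admits fatty acids to mitochondria, fell on monosomes (-1.90), light polysomes (-1.54) and heavy polysomes (-1.64; SE 0.35 each), and was not called in cytoplasm (adjusted p = 0.0705). Cyp4a14, a fatty acid hydroxylase, was not called in any pool: it held 1.28 and 1.04 FPKM in DDC cytoplasm, against 137 and 2.64 FPKM in CHOW cytoplasm. The high CHOW value came from preparation CH1_CH2, which also differed in its sex-linked genes, and all 4 libraries of that preparation held over 100 FPKM.

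Pparg (chromosome 6, 115360951 to 115490399, plus strand), a driver of lipid storage that is low in healthy hepatocytes, moved the other way. In cytoplasm it held 6.09 and 6.67 FPKM in DDC, against 1.41 and 0.986 FPKM in CHOW, and on monosomes 10.2 and 10.2 FPKM in DDC, against 3.37 and 0.559 FPKM in CHOW. On light polysomes it held 4.2 and 4.52 FPKM in DDC, against 2.16 and 0.411 FPKM in CHOW, and on heavy polysomes 1.55 and 2.98 FPKM in DDC, against 2.88 and 0.227 FPKM in CHOW. The diets overlapped on heavy polysomes and in no other pool. Pparg rose by 1.75 in cytoplasm (SE 0.56, adjusted p = 0.0431) and 2.10 on monosomes (adjusted p = 0.0123); on light and heavy polysomes the changes were 1.34 (adjusted p = 0.0914) and 0.55 (adjusted p = 0.529).

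CHOW replicate 1 of Pparg exceeded CHOW replicate 2 in every ribosome fraction, at 2.16 to 3.37 FPKM against 0.227 to 0.559 FPKM. Leaving out the 4 CHOW libraries of CH1_CH2 left preparation CH3_CH4, where Pparg was lower, alone in each CHOW group. The changes of Pparg were then 1.89, 2.85, 1.93 and 1.38 in cytoplasm, on monosomes, light and heavy polysomes. Without the 3 DDC libraries of preparation B it was called in none (adjusted p = 0.0898 in cytoplasm and 0.0823 on monosomes), and without a filter on low values the cytoplasmic call ended (adjusted p = 0.102).

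Markers of other liver cells were higher in DDC beside Pparg. Of 15 macrophage markers 13 rose and 0 fell in cytoplasm, and their summed level was 774 to 1220 FPKM in DDC cytoplasm, against 112 to 149 FPKM in CHOW cytoplasm, with no marker at 0. Cd68 held 38.1 and 56.0 FPKM in DDC cytoplasm, against 2.09 and 2.66 FPKM in CHOW cytoplasm. Of 13 stellate cell and fibroblast markers tested 10 rose and 0 fell, with sums of 178 to 202 FPKM in DDC cytoplasm, against 39.3 to 55.4 FPKM in CHOW cytoplasm, where Acta2 and Timp1 were at 0. Of 8 cholangiocyte markers tested 6 rose, with sums of 342 to 455 FPKM in DDC cytoplasm, against 42.1 to 47.3 FPKM in CHOW cytoplasm, where Epcam, Cftr and Cldn7 were among the markers at 0, and 0 of 9 endothelial markers changed. The part of these cells in the values of Pparg was not tested.

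Of 8 target genes of PPARgamma, 6 were tested, and 3 rose and 0 fell in cytoplasm (median change 2.25, all genes 0.01). Cidec, a lipid droplet protein, held 8.18 and 7.97 FPKM in DDC cytoplasm, against 0.488 and 0.888 FPKM in CHOW cytoplasm (2.44, SE 0.61, adjusted p = 0.0142), and was not called in the other pools. Fabp4, a fatty acid binding protein of adipocytes and macrophages, rose in all 4 pools, with 5.98 and 11.3 FPKM in DDC cytoplasm, against 0.784 and 1.48 FPKM in CHOW cytoplasm (2.14, SE 0.48, adjusted p = 0.00811). Mogat1, an enzyme of triglyceride synthesis, was not called in any pool.

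Rxra (chromosome 2, 27676440 to 27762957, plus strand) encodes the shared partner RXRalpha. It held 42.6 and 41.8 FPKM in DDC cytoplasm, against 60.4 and 61.5 FPKM in CHOW cytoplasm, and 27.2 and 21.3 FPKM on DDC heavy polysomes, against 40.1 and 33.8 FPKM on CHOW heavy polysomes. Although the diets did not overlap in these pools, the changes of -0.52 (SE 0.23, adjusted p = 0.129) and -0.59 (SE 0.23, adjusted p = 0.0812) were not called. On monosomes it held 56.0 and 75.4 FPKM in DDC, against 74.5 and 78.0 FPKM in CHOW, and there and on light polysomes the diets overlapped. Without preparation B, which left preparation C alone in the DDC fractions, the change on heavy polysomes was -0.76. That in cytoplasm stayed at -0.52.

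Nr1h3 (chromosome 2, 91184061 to 91202834, minus strand) encodes LXRalpha, a sensor of oxysterols. It held 35.3 and 33.7 FPKM in DDC cytoplasm, against 44.4 and 36.2 FPKM in CHOW cytoplasm, and 145 and 148 FPKM on DDC monosomes, against 158 and 148 FPKM on CHOW monosomes. On light polysomes it held 305 and 187 FPKM in DDC, against 189 and 167 FPKM in CHOW, and on heavy polysomes 241 and 103 FPKM in DDC, against 287 and 218 FPKM in CHOW. No change was called; the changes were -0.21, -0.06, 0.42 and -0.66 in cytoplasm, on monosomes, light and heavy polysomes (SE 0.35 each; adjusted p = 0.2 or higher). Without preparation B, which left preparation C alone in the DDC fractions, the change on heavy polysomes was -1.26.

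The estimated shares of the Nr1h3 transcripts lay apart between the diets. Nr1h3-201 made up 37.3% and 30.1% of the gene in DDC cytoplasm, against 48.4% and 45.5% in CHOW cytoplasm, and 16.2% and 13.6% on DDC heavy polysomes, against 39.2% and 39% on CHOW heavy polysomes. Nr1h3-202 made up 81.5% and 77.5% on DDC heavy polysomes, against 54.5% and 59.6% on CHOW heavy polysomes. The diets did not overlap for either transcript in any pool, but the 2 transcripts hold most of the gene's FPKM, so their shares are tied. On monosomes Nr1h3-201 made up 26.2% and 46.0% in DDC, against 53.9% and 53.5% in CHOW. In FPKM, Nr1h3-201 held 39.2 and 14.1 on DDC heavy polysomes, against 113 and 84.8 on CHOW heavy polysomes, while Nr1h3-202 held 197 and 80.1 on DDC heavy polysomes, against 156 and 130 on CHOW heavy polysomes, where the diets overlapped. The 2 transcripts have 1802 and 1738 bases. How fragments were divided between them depends on the authors' estimation, and no test was made on shares. The macrophage markers described above were also higher in DDC in these pools, and their part in the shares was not tested.

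Of 12 LXR target genes 11 were tested, and 4 rose and 1 fell in cytoplasm (median change 0.11, all genes 0.01). Abca1, which exports cholesterol, held 6.72 and 6.48 FPKM on DDC monosomes, against 3.03 and 2.37 FPKM on CHOW monosomes (1.04, SE 0.20, adjusted p = 0.00223), and rose on light polysomes as well (0.60, adjusted p = 0.0441), but not in cytoplasm (adjusted p = 0.991). Srebf1, the regulator of lipid synthesis, was not called in any pool, and Abcg5, a subunit of the sterol exporter, fell on light polysomes alone (-1.13, SE 0.28, adjusted p = 0.00932).

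**Figure D3:**
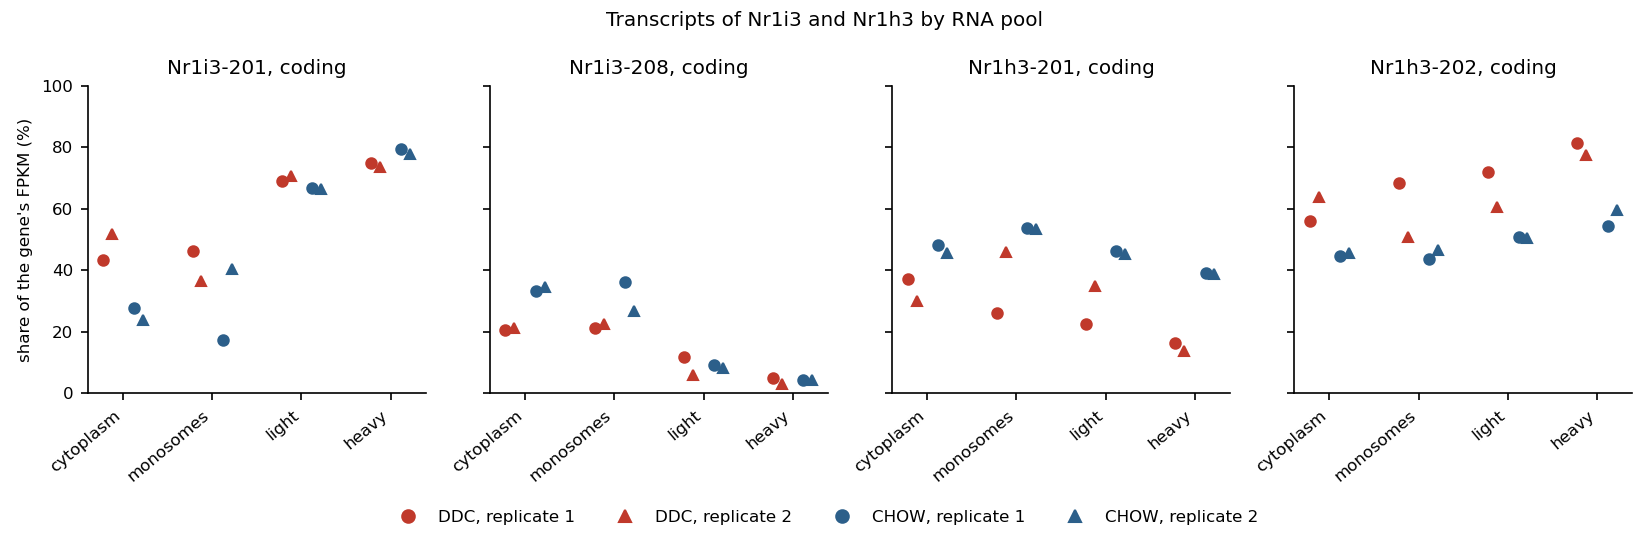
Share of the gene's FPKM (y axis, percent) held by the transcripts Nr1i3-201, Nr1i3-208, Nr1h3-201 and Nr1h3-202 in cytoplasm, on monosomes, light and heavy polysomes, with DDC (red) left of CHOW (blue), circles for replicate 1 and triangles for replicate 2. Nr1i3-201 lies at 73.7% to 79.6% on heavy polysomes with either diet, and Nr1h3-201 lies lower in DDC than in CHOW in every pool.

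Nr3c1, on chromosome 18, encodes the glucocorticoid receptor, which adjusts gluconeogenesis and inflammation to cortisol or corticosterone. It held 5.09 and 4.81 FPKM in DDC cytoplasm, against 11.4 and 10.7 FPKM in CHOW cytoplasm, and 4.17 and 3.53 FPKM on DDC monosomes, against 10.4 and 9.07 FPKM on CHOW monosomes. On light polysomes it held 2.68 and 1.68 FPKM in DDC, against 4.11 and 5.08 FPKM in CHOW, and on heavy polysomes 0.668 and 0.702 FPKM in DDC, against 1.22 and 1.71 FPKM in CHOW. Both DDC libraries lay below both CHOW libraries in all 4 pools. The DDC mean was 0.448, 0.396 and 0.474 of the CHOW mean in cytoplasm, on monosomes and on light polysomes, with changes of -1.02, -1.14 and -0.83 (SE 0.22 each; adjusted p = 0.00669, 0.00199 and 0.0142). On heavy polysomes the change was -0.54 (adjusted p = 0.0956).

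Of 17 target genes of the glucocorticoid receptor 16 were tested. In cytoplasm 1 rose and 5 fell (median change -1.01, all genes 0.01), where 12.7% of all genes rose and 9.68% fell. On monosomes 6 rose and 3 fell (median 0.13, all genes 0.04), where 21% of all genes rose and 15.9% fell, and on heavy polysomes 5 rose and 3 fell (median 0.25, all genes 0.02), where 13.9% rose and 10.9% fell. Tat, which breaks down tyrosine, held 170 and 236 FPKM in DDC cytoplasm, against 608 and 625 FPKM in CHOW cytoplasm (-1.62, SE 0.25, adjusted p = 0.000911). Tsc22d3, the anti-inflammatory factor GILZ, fell in cytoplasm (10.9 and 19.3 FPKM in DDC, against 58.2 and 93.6 FPKM in CHOW; -2.27, SE 0.45, adjusted p = 0.00425) and was not called in the ribosome fractions, and Fkbp5, a chaperone of the receptor, was not called in any pool.

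Nr1d1 (chromosome 11, 98767932 to 98775333, minus strand) encodes REV-ERBalpha, whose message swings over the day. It held 10.6 and 5.72 FPKM in DDC cytoplasm, against 0.836 and 2.54 FPKM in CHOW cytoplasm, and 0.588 and 10.6 FPKM on DDC heavy polysomes, against 11.1 and 3.31 FPKM on CHOW heavy polysomes. The diets overlapped in each ribosome fraction, and the cytoplasmic change of 1.79 (SE 1.02, adjusted p = 0.243) was not called, with a 95% interval from -0.44 to 4.02. Preparation B was taken to have no cytoplasmic library, so that leaving it out did not alter the cytoplasmic change. The hour at which mice were killed is not given in the sources used here. A stretch of 263 bases, 9.67% of Nr1d1-201, overlaps Thra on the opposite strand, which held 1.13 to 9 FPKM over the libraries, so the lowest values of Nr1d1 are uncertain.

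Within DDC the replicates of Nr1d1 lay far apart. Over the DDC ribosome fractions it held 0.588 to 0.794 FPKM in preparation B and 7.60 to 10.6 FPKM in preparation C, a gap wider than that of 99.5% to 99.7% of genes. In CHOW its gap was wider than that of 72.5% of genes on monosomes, 74.9% on light polysomes and 95.1% on heavy polysomes. Of 19 other clock genes, 8 held ranges over the DDC fractions that did not overlap between preparations B and C, and 11 overlapped, while 9.69% of all genes tested did not overlap. Dbp, a clock output, held 2.64 to 5.51 FPKM in preparation B and 8.98 to 16.3 FPKM in preparation C. Arntl, the gene of BMAL1, held 2.31 to 3.54 FPKM in preparation B and 0.758 to 1.84 FPKM in preparation C, and Per1, Per2, Cry1, Cry2 and Usp2 were also higher in preparation B in all its fractions. Nr1i3 was higher in preparation B by the values given above; whether the clock genes have a part in it was not tested.

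Of 19 circadian clock genes 17 were tested, and 7 fell and 0 rose in cytoplasm (median change -1.02, all genes 0.01), 4 fell on monosomes, 1 on light and 4 on heavy polysomes. Nr1d2, the paralog of Nr1d1, fell on monosomes (-2.07, SE 0.47, adjusted p = 0.00497) and light polysomes (-1.57, adjusted p = 0.0246). Dbp fell on monosomes (2.64 and 8.98 FPKM in DDC, against 65.0 and 54.0 FPKM in CHOW; -3.32, SE 1.00, adjusted p = 0.0217) and heavy polysomes (-3.74, adjusted p = 0.0170), and Arntl was not called in any pool. In cytoplasm Dbp held 19.9 and 4.06 FPKM in DDC, against 1.43 and 20.2 FPKM in CHOW, so that replicates lay farther apart than the diets.

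The second question was which receptor messages sat on heavy polysomes rather than monosomes within a diet. Nr3c1 and Rxra were lower on heavy polysomes with either diet, Pparg in DDC, and Nr1h4 was higher on heavy polysomes with either diet. In DDC 4 of 10 receptors were called, against 32.7% of all genes, 3 of them lower (14.5% of all genes) and 1 higher (18.2%). In CHOW 3 of 10 were called, against 44.8% of all genes, 2 of them lower (21.1%) and 1 higher (23.7%). The shares called were thus near or below those of all genes.

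Nr3c1 had the lowest ratio of heavy polysome to monosome FPKM in 3 of 4 preparations. The ratios were 0.160 and 0.199 in DDC, and 0.118 and 0.188 in CHOW, so that the diets overlapped. The change, heavy polysomes minus monosomes, was -1.52 in DDC and -2.12 in CHOW (SE 0.22 each; adjusted p = 0.000430 and 2.45e-05), and both calls held under all 15 alternatives. The ratios of Rxra were 0.485 and 0.282 in DDC, and 0.538 and 0.434 in CHOW, with changes of -1.40 in DDC and -1.03 in CHOW (SE 0.23 each; adjusted p = 0.000876 and 0.00325). Nr3c1 and Rxra have the longest main transcripts of the 10 genes, at 6327 and 4905 bases, while the others range from 1132 to 3413 bases. The ratios did not follow length throughout. Pparg, with 1767 bases, had ratios of 0.152 to 0.852 over the 4 preparations. Ppara, with 3413 bases, had ratios of 0.983 to 3.47. Whether length has a part in the ratios was not tested.

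The ratios of Pparg were 0.152 and 0.291 in DDC, and 0.852 and 0.406 in CHOW. The change was -1.81 in DDC (SE 0.56, adjusted p = 0.0273) and -0.26 in CHOW (adjusted p = 0.753), where the values were low; the call in DDC ended without preparation B (-1.50, adjusted p = 0.299). Nr1h4 had ratios of 1.37 and 2.02 in DDC, and 1.78 and 2.12 in CHOW, and changes of 0.68 in DDC and 0.93 in CHOW (SE 0.23 each; adjusted p = 0.0371 and 0.00543). With libraries scaled to equal totals, which moved the median change of all genes by -0.37 in both diets, these changes were 0.12 and 0.15 and were not called (adjusted p = 0.743 and 0.672).

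**Figure D4:**
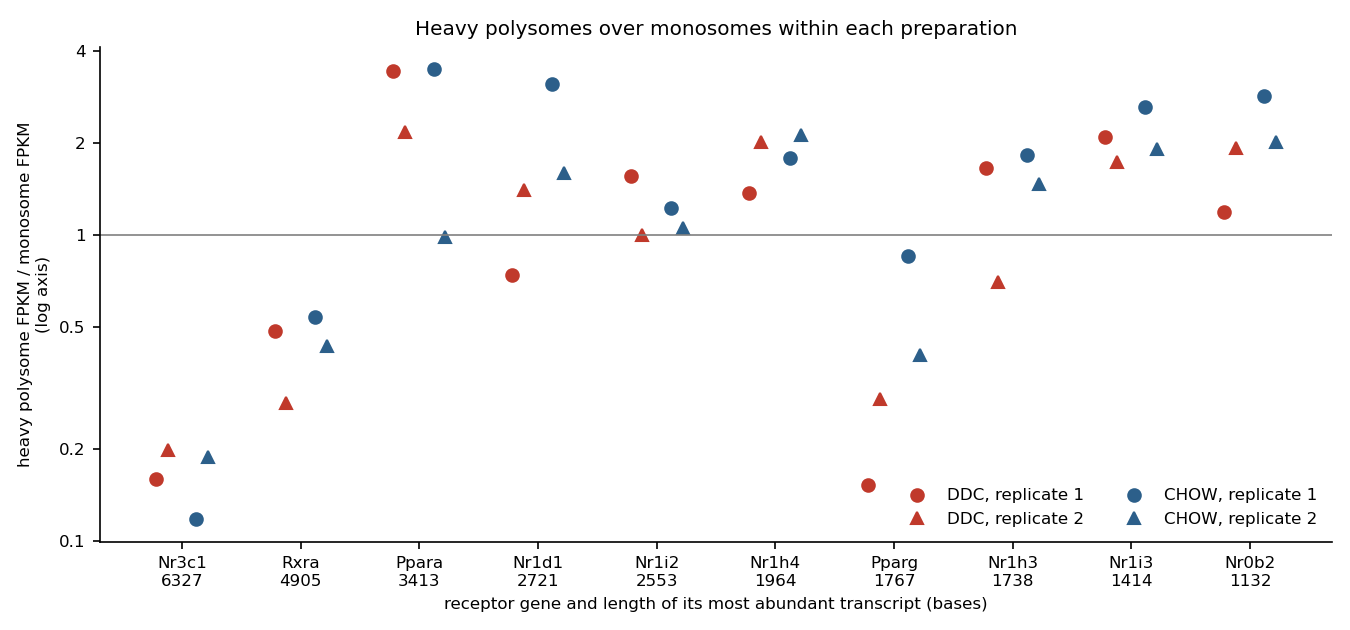
Ratio of heavy polysome to monosome FPKM (y axis, log scale) for each receptor, ordered along the x axis by the length of its most abundant transcript from longest to shortest, with DDC (red) left of CHOW (blue), circles for replicate 1 and triangles for replicate 2. Nr3c1, Rxra and Pparg lie below 1 in all 4 preparations, and Nr1h4, Nr1i3, Nr0b2 and Nr1i2 above 1. The same ratio of FPKM summed over all tested genes was 1.78 and 1.31 in DDC, and 1.83 and 1.68 in CHOW.

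The ratios of Nr1i3 were 2.08 and 1.73 in DDC, and 2.61 and 1.90 in CHOW, and those of Nr0b2 were 1.19 and 1.93 in DDC, and 2.84 and 2.01 in CHOW. Neither gene was called (adjusted p = 0.390 in DDC and 0.243 in CHOW for Nr1i3, 0.475 and 0.108 for Nr0b2). A fit on the ribosome fractions with preparation as a fixed effect, added after the values were seen, called Nr1i3 in DDC (0.90, adjusted p = 0.0198) and in CHOW (1.15, adjusted p = 0.00428). The same fit called Nr0b2 in CHOW (1.24, adjusted p = 0.00904) and Nr1d1 in CHOW (0.95, adjusted p = 0.0379).

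The transcripts of Nr1i3 were spread unevenly over the pools. Nr1i3-201 made up 75.0% and 73.7% of the gene's FPKM on DDC heavy polysomes, against 46.3% and 36.7% on DDC monosomes, and 79.6% and 77.8% on CHOW heavy polysomes, against 17.5% and 40.4% on CHOW monosomes. Nr1i3-208, a longer coding transcript of 2980 bases, made up 4.94% and 2.94% on DDC heavy polysomes, against 21.2% and 22.4% on DDC monosomes, and 4.25% and 4.45% on CHOW heavy polysomes, against 36.1% and 26.8% on CHOW monosomes. Transcripts annotated as noncoding made up 2.67% and 2.27% on DDC heavy polysomes, against 13.8% and 19.7% on DDC monosomes, and 2.22% and 1.55% on CHOW heavy polysomes, against 26.8% and 22% on CHOW monosomes. In all of these the heavy polysomes and monosomes did not overlap. Within cytoplasm Nr1i3-201 made up 43.2% and 51.9% in DDC, against 27.6% and 24% in CHOW. Tomm40l overlaps 72.5% of Nr1i3-208 and 72.3% to 85.0% of the noncoding transcripts, against 66.2% of Nr1i3-201. It held 6.16 and 21.6 FPKM on DDC monosomes, against 5.38 and 5.14 FPKM on DDC heavy polysomes. In CHOW the values were 8.75 and 16.7 FPKM, against 4.65 and 5.15 FPKM. Neither change was called. In CHOW cytoplasm, where Tomm40l held 2.36 and 3.52 FPKM, Nr1i3-208 made up 33.3% and 34.6%. The part of Tomm40l reads in these shares was not tested.

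The third question was whether the placement on heavy polysomes differed between the diets. None of the 10 receptors was called for the diet difference of heavy polysomes against monosomes by limma, where 1.9% of all genes were (0.996% higher and 0.902% lower), nor for that of heavy polysomes against cytoplasm, where 0.102% of all genes were (0.0596% higher and 0.0426% lower), and 0 receptors reached an unadjusted p under 0.05 in either. For Nr1h4 the difference of heavy polysomes against monosomes was -0.25 (SE 0.32) with a 95% interval from -0.95 to 0.45. For Pparg it was -1.55 (SE 0.80, adjusted p = 0.299, interval from -3.29 to 0.18), and for Nr3c1 0.60 (SE 0.31, adjusted p = 0.303, interval from -0.08 to 1.28). For Nr1i3 the interval ran from -2.58 to 2.08, so that large differences in either direction could not be seen with these replicates.

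Ordered by mean level, Nr1h4 was highest on CHOW heavy polysomes (44.8 FPKM) and in CHOW cytoplasm (42.7), which overlapped, then on CHOW light polysomes (35.6) and CHOW monosomes (23.2), and every DDC group lay below these (10.8 to 18). Nr3c1 was highest in CHOW cytoplasm (11.1) and on CHOW monosomes (9.72) and lowest on DDC heavy polysomes (0.685), and both of these CHOW groups stood apart from the next. Nr1i3 was highest on CHOW heavy polysomes (239) and lowest in DDC cytoplasm (10.1), and those 2 groups were the ones that overlapped no neighbour in the order. Nr1h3 held 33.7 to 44.4 FPKM in cytoplasm and 103 to 305 FPKM in the ribosome fractions, without overlap. For Nr0b2 and Nr1i2 each group overlapped its neighbours in the order throughout.

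Over the 8 group means of log2(FPKM + 1), which share libraries and scaling, the receptors that moved most alike were Nr1h4 and Ppara (Pearson's r = 0.936), followed by Rxra and Nr3c1 (0.828). The tested genes most like Nr1h4 were Hsd11b1, an enzyme that activates glucocorticoids (0.993), and Bbox1, the last enzyme of carnitine synthesis (0.989). Those most like Ppara were Etnppl (0.987) and Pck1 (0.978), those most like Nr1i3 were Cdip1 (0.991) and Hal (0.990), and those most like Nr3c1 were Arrdc3 (0.997) and Csnk2a1 (0.994). Nr1h3 was closest to Klhdc3 (0.995) and Prss36 (0.990), Nr0b2 to Gtpbp6 (0.984) and Qars (0.982), and Pparg to Slc39a1 (0.974) and Slc11a2 (0.974). Rxra was closest to Fam20b (0.971) and Irak1 (0.959), Nr1d1 to Tmed4 (0.902) and Raet1e (0.864), and Nr1i2, with its even levels, to Nfyc (0.893) and Gm28437 (0.841). These coefficients describe 8 points each and were chosen as the highest of all genes.

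Of 39 other nuclear receptor genes 24 were tested, and 5 fell and 0 rose in cytoplasm (median change -0.45), where 12.7% of all genes rose and 9.68% fell. On monosomes 3 rose and 6 fell, on light polysomes 3 rose and 1 fell, and on heavy polysomes 2 rose and 0 fell, where 13.9% of all genes rose and 10.9% fell. Among those that fell in cytoplasm, named here after their values were seen, were Esr1 (-1.49), Thrb (-1.21) and Nr2c2 (-0.59). Hnf4a, the receptor that maintains hepatocyte identity, was not called in any pool (change -0.65 in cytoplasm, SE 0.28, adjusted p = 0.125), and Nr5a2, an activator of bile acid synthesis genes, fell on monosomes (-0.91, SE 0.27, adjusted p = 0.0189). Nr1h2, the LXRbeta gene, rose on monosomes (0.57, adjusted p = 0.0352) and light polysomes (0.97, SE 0.19, adjusted p = 0.00312). Between heavy polysomes and monosomes, 5 of these 24 genes were lower and 0 higher in DDC, where 14.5% of all genes were lower and 18.2% higher. In CHOW 11 were lower and 3 higher, where 21.1% of all genes were lower and 23.7% higher. Of 22 coregulators 20 were tested, and 1 rose and 3 fell in cytoplasm (median -0.11); Ncor1 was not called in any pool and Ncoa1 fell on monosomes (-0.76, SE 0.21, adjusted p = 0.0150), while Ppargc1a was under the minimum for testing.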

How the data were processed

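The authors deposited a table of FPKM per transcript, scaled between libraries; the submitters' processing notes list STAR 2.4.2a and Cuffnorm, with Trimmomatic, Picard 1.119, bcl2fastq 2.17.1.14 and the GRCm38 build, and options are not given in the sources used here. Transcripts were joined to GENCODE M21 (116728 of 117592 matched; the rest held at most 0.51% of a library's FPKM) and summed per gene. Scaling means that depth is unknown, and division of reads between transcripts rests on the authors' estimation.

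Testing was limited to the 11790 genes that reached 1 FPKM in 2 or more libraries. Where a gene reached 100 FPKM in some library yet stood at 0 in both libraries of a group, that group's values were set aside (61 genes, none of the receptors). Values were log2(FPKM + 1). limma 3.58.1 (R 4.3.3) estimated 8 group means from the 16 libraries together, using its trend of variance on mean level (residual degrees of freedom 8, prior 3.905) and Benjamini-Hochberg adjustment over all genes, threshold 0.05; 8 comparisons were made. The model was tested on simulated data with independent noise in each library, so that this did not cover libraries that share a preparation. Tables were handled in Python 3.11.15 with pandas 2.3.3.

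The receptors and all gene lists were chosen with earlier results of these data known. Named were all 10 receptors, the first 3 genes of each of 15 lists, 2 most alike genes per receptor among genes with at least 5 FPKM in a group, and transcripts with at least 10% of a receptor's FPKM in a group; clock genes that separate DDC preparations, sex-linked genes and opposite-strand genes were added after their values were seen. The differences between replicates correlated across genes at 0.357 to 0.749 within CHOW, 0.305 to 0.365 among DDC fractions, -0.0499 to 0.161 for DDC cytoplasm with a fraction, and -0.0938 to 0.0702 across the diets, so that the labels' preparations pair fractions within a diet and numbers do not pair the diets. Alternatives were another pseudocount (0.1), no filter, equal totals, quantile normalization, coding transcripts alone, smaller fits, replicate blocks and leaving out libraries. A few genes of the lists are counted but not reported here by name.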

Additional observations from a re-analysis of the deposited data

How the results depend on the processing

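No change of a receptor that was called turned its direction under any alternative, and 4 of 21 calls held under every one: Ppara in cytoplasm, Nr1h4 on light polysomes, and Nr3c1 on heavy polysomes against monosomes in DDC and in CHOW. Of 59 changes not called, 34 had another sign under some alternative, so no direction is read from them. The count of receptors called with DDC in cytoplasm, 5, was 3 without a filter, 2 without the CHOW libraries of CH1_CH2 and 2 to 3 with 1 library left out. On monosomes the count of 4 was 0 with the groups compared alone in the fit and 2 to 4 with 1 library left out. On light polysomes the count of 3 was 1 to 2 with 1 library left out. On heavy polysomes the count of 2 was 1 without a filter, 1 with equal totals, 0 with the groups compared alone, 4 without the DDC libraries of preparation B and 1 to 3 with 1 library left out. For heavy polysomes against monosomes, the count of 4 in DDC was 1 with the groups compared alone and 2 to 4 with 1 library left out. The count of 3 in CHOW was 1 without CH1_CH2, 5 without preparation B and 2 to 3 with 1 library left out; the cause of these shifts was not tested. No CHOW library belongs to preparation B, so leaving it out kept the size of the changes within CHOW and altered the estimate of spread, which all groups share. With a replicate block by number, which pairs libraries across diets by number alone, the counts were 5, 4, 3 and 3 in the diet comparisons, and Nr1i3 on heavy polysomes (adjusted p = 0.0395) and Nr0b2 on heavy polysomes against monosomes in CHOW (adjusted p = 0.0276) became called. A replicate block by preparation as a random effect changed no call. As a fixed effect on the ribosome fractions, the replicate block by preparation called 6 receptors in CHOW, and the call of Nr1h4 in DDC ended (adjusted p = 0.0535). Equal totals moved the median change of all genes with diet by 0.17, 0.21, 0.23 and 0.27 in cytoplasm, on monosomes, light and heavy polysomes. Nr3c1 on heavy polysomes became called with quantile normalization (-0.76, adjusted p = 0.0331) and with a pseudocount of 0.1 (-0.98, adjusted p = 0.0290). Summing coding transcripts alone changed none of 80 calls. Leaving out preparation B and the fixed block were chosen after seeing the data. With 2 libraries per group, a library left alone in its group was assumed to vary like the others. Depth is unknown, and values under 1 FPKM are compressed by the pseudocount.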

Other observations

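The 3 retinoic acid receptor genes, named after their values were seen, were called with DDC in different pools or in none. Rarg rose on monosomes (1.41), light polysomes (1.78) and heavy polysomes (1.11), and Rara on light polysomes (0.87) and heavy polysomes (0.92). Rarg was not called in cytoplasm (adjusted p = 0.0547), Rara was not called in cytoplasm or on monosomes (adjusted p = 0.215 and 0.0778), and Rarb was not called in any pool (adjusted p = 0.192 or higher). Esr1, the estrogen receptor alpha gene, fell in cytoplasm (-1.49) and on monosomes (-1.40); the CHOW libraries of replicate 1 differ from all others in sex-linked genes, and the part of this in its values was not tested.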
